A study of Mus musculus with 29 samples.

Results

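Interferon-stimulated genes were followed here as a set of 50 mouse genes, chosen by name and identified by their Ensembl IDs among the 25746 genes of the deposited count tables. They were chosen with earlier results of these data known. Shares of all genes given beside them are therefore a background and not an independent test of the set. All 50 had counts and all 50 entered the test, which covered 17031 genes after a filter on low counts. RNA was sequenced from cortex around a photothrombotic stroke, in which Rose Bengal and light clot vessels of the right sensorimotor cortex, 21 days after injury. The 29 libraries fall into 8 groups. Non-stroked mice were C57BL/6 wildtype (WT, n = 4), Rag2-/- (n = 3) and NSG (n = 4). Stroked mice were untreated WT (n = 4), WT given tacrolimus from the day of stroke (WT-Tacr acute, n = 3), WT given tacrolimus from day 7 (WT-Tacr delayed, n = 5), Rag2-/- (n = 3) and NSG (n = 3). The mice were 3 months of age and of both sexes.

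Tacrolimus is a calcineurin inhibitor that dampens T cell activation and was given by subcutaneous pump. Rag2-/- mice have no mature T and B cells. NSG mice also lack NK cells and are on another strain background, so that strain and immune deficiency cannot be told apart in them. No non-stroked mouse received tacrolimus, so the drug's own effect on resting tissue cannot be told apart from its effect after stroke. The study's methods describe the non-stroked RNA as coming from the contralesional side, whereas its results speak of naive mice, and non-stroked is used for both. The WT, acute and delayed stroke comparisons share the same 4 non-stroked WT samples.

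Interferons bind cell surface receptors that activate JAK kinases and STAT transcription factors. Type I interferons act through transcription factors that include STAT2 and IRF9 at the interferon-stimulated response element, while interferon gamma acts at gamma-activated sites. The induced genes encode sensors of foreign nucleic acids, enzymes and GTPases that restrict viruses and intracellular microbes, and regulators of the response itself. In brain, microglia, astrocytes, neurons and infiltrating leukocytes can all express them.

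Total counts per library ranged from 17789044 to 43403413. The labels carry the prefixes Imm2 (20 libraries) and TF (9 libraries), called cohorts here. All non-stroked, Rag2-/- and NSG mice belong to Imm2, all delayed mice to TF, untreated stroked WT mice are split 2 and 2, and acute mice 1 and 2. Only the untreated stroked WT and acute groups hold both cohorts, so in fits with the cohort as a covariate its effect is estimated from them alone. Median totals were 37223696 in Imm2 and 23155303 in TF. Levels are given as CPM, counts scaled to library size with TMM factors. Fold changes and p-values come from 1 edgeR quasi-likelihood fit of all 8 groups, and a gene was called when its adjusted p was below 0.05 and its log2 fold change beyond 1. Summed CPM of 5 cortical neuron markers lay between 874 and 2254 in every library. Rag2 itself had at most 2 counts in any library, so it did not check the Rag2-/- label. Choroid plexus markers varied within groups, most in stroked Rag2-/- mice, where their summed CPM was 7.60 to 1566. Where nothing says that samples came from separate experiments, p-values measure only the spread between these samples.

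Promoters of 6 members are shown first, since interferon-inducible genes are known for response elements near their start. The table of RefSeq promoters on GRCm38.p6 held 38 of the 50 genes. The core of the response element was searched as GAAA, any 2 bases and GAAA again, on both strands, where the other strand reads TTTC, any 2 bases and TTTC. In the 250 bases before the gene start it was found in 19 of these 38 genes, 50%, against 936 of 27025 genes in the table, 3.46%. The gamma-activated motif, TTC, any 3 bases and GAA, reads the same on both strands. It was found in 10 of 38 genes, 26.3%, against 8.13% of all genes, and 6 members had both. Matches to the response element core shared bases with each other in 5 member genes, and in Bst2 they also shared bases with the gamma-activated motif. The sequences below were chosen from genes that differ in the response described next. Isg15, Ifit3 and Bst2 were called higher after stroke in WT mice, though other members rose more. Stat2 and Cmpk2 did not pass the test, and Rsad2 is the neighbour of Cmpk2. They run 5′ to 3′ toward the gene, with matches to the response element core in capitals.
Isg15, chr4:156200819-156201068, minus strand: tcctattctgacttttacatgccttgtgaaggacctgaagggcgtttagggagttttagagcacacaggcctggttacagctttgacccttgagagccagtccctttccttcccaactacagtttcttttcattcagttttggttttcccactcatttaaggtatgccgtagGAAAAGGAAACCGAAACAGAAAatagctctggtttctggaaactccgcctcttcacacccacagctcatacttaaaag
Ifit3, chr19:34583279-34583528, plus strand: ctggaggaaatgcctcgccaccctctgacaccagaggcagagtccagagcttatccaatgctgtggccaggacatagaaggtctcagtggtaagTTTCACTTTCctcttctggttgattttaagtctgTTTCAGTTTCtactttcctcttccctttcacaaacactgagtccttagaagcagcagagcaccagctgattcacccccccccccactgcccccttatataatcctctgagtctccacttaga
Bst2, chr8:71537473-71537722, minus strand: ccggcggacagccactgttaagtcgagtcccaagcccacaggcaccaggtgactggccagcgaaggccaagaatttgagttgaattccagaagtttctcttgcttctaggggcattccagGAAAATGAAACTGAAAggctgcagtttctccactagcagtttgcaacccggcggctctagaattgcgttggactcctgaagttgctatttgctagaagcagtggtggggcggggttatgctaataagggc
Stat2, chr10:128270248-128270497, plus strand: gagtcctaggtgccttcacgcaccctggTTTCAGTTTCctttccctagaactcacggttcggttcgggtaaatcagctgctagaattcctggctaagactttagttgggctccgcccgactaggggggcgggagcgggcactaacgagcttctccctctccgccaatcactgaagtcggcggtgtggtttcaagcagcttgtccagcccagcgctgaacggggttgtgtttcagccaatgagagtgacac
Rsad2, chr12:26456453-26456702, minus strand: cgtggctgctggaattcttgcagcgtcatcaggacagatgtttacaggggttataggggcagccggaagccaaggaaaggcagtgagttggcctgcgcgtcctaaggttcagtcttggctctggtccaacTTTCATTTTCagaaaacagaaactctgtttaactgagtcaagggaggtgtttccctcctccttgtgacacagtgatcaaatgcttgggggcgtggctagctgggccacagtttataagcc
Cmpk2, chr12:26468965-26469203, plus strand: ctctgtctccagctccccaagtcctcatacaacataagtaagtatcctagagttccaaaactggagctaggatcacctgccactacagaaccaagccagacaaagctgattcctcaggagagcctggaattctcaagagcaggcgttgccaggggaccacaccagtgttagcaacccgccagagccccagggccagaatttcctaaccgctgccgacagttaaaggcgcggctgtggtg
Isg15 held 3 overlapping matches that start 78, 72 and 66 bases before the gene, Ifit3 held 2 at 156 and 122 bases, and Bst2 held 2 at 130 and 124 bases. Stat2 had 1 match at 222 bases and Rsad2 had 1 at 120 bases. Cmpk2 had none in this window, of which 239 bases are printed because the last 11 are covered by the annotated gene. The motif was thus present both in genes that rose and in Stat2, which did not pass the test. Over the 19 genes with a match the median log2 fold change after stroke in WT mice was 1.42, and over the 19 without it was 0.92. These are descriptions of letters in a window, and binding was not measured.

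Most interferon-stimulated genes were higher after stroke in WT mice. Of the 50 members, 30 were called higher and 0 lower, whereas 6.76% of all genes tested were called higher. The median log2 fold change of the members was 1.28, with a range from -0.11 to 4.78, and that of all genes tested was -0.000445. In 43 members every stroked WT mouse lay above every non-stroked WT mouse, which held for 16.3% of all genes. The summed CPM of the 50 genes was 210 to 223 in the 4 non-stroked WT mice and 339, 381, 426 and 476 in the 4 stroked ones. The stroked values do not overlap with the non-stroked ones, and the 2 mice of cohort TF are the higher pair. With the cohort as a covariate 17 members were called and their median fell to 0.90, and within Imm2 23 were called with a median of 0.99.

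**Figure D1:**
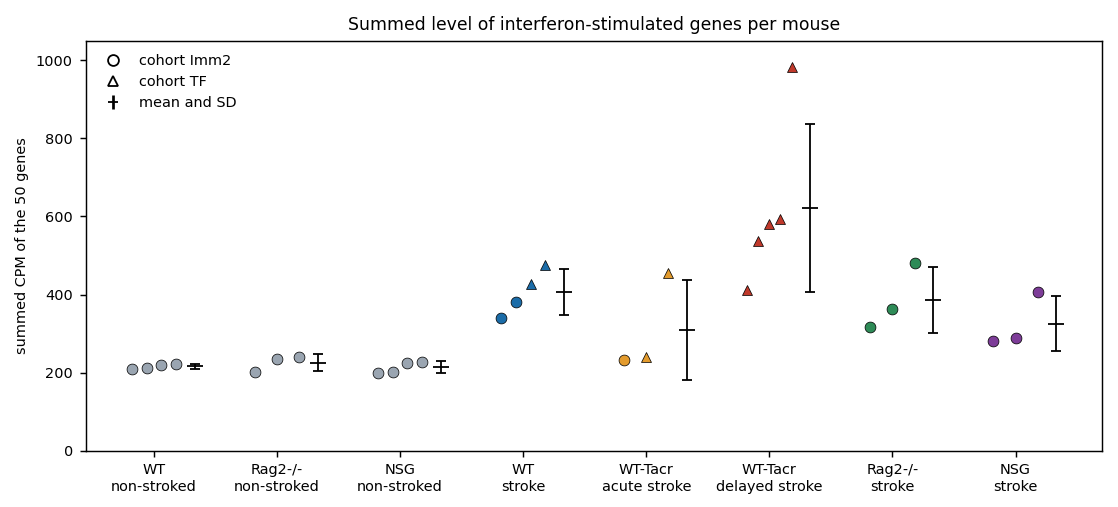
Summed CPM of the 50 interferon-stimulated genes (vertical axis, linear from 0) in each mouse of the 8 groups (horizontal axis). Circles are cohort Imm2, triangles cohort TF, and bars the group mean with its SD. All non-stroked mice lie between 199 and 241, 2 acute mice stay at 232 and 239, and 1 delayed mouse reaches 983.

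Among the IFIT proteins, which bind RNA ends typical of viral transcripts, 3 of 4 were called higher in stroked WT mice. Ifit3 was measured at 3.37, 3.73, 4.38 and 4.43 CPM in non-stroked mice and at 10.8, 11.2, 11.7 and 12.2 CPM in stroked ones. The groups are widely separated and each is tight. Its log2 fold change was 1.53 ± 0.26 (SE, edgeR adjusted p = 0.00017). Ifit3b, a close paralog with which reads may be shared, gave 1.53 ± 0.27 and Ifit1 gave 1.42 ± 0.40. Ifit2, next to Ifit3 on chromosome 19, was at 11.2 to 12.1 CPM before and 12.6 to 15.3 CPM after stroke, with a log2 fold change of 0.26 ± 0.14 that did not pass the test (edgeR adjusted p = 0.171).

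The OAS family makes or resembles the enzymes that make the short oligoadenylates that activate RNase L, and 4 of its 5 members were called. Oasl2 was at 2.55, 3.24, 3.47 and 3.52 CPM in non-stroked and at 9.72, 9.87, 10.7 and 12.2 CPM in stroked WT mice. Its log2 fold change was 1.74 ± 0.42. Oas1a rose by 2.87 ± 0.56 on the log2 scale (edgeR adjusted p = 0.000663), from 0.114 to 0.299 CPM to 0.861 to 2.41 CPM. Oas3 was close to absent at rest, with 2 counts over the 4 non-stroked WT mice and 48 over the 4 stroked ones, a ratio of 26.7 (95% interval of counting error 6.99 to 227). Oasl1 was the member not called, at 1.23 ± 0.52 with an adjusted p of 0.0795 in edgeR, and its groups overlapped.

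Of the 5 sensors, Zbp1 was the one called. It recognises Z-form nucleic acids and can trigger cell death. It gave 1 to 4 counts in each non-stroked WT library, or 0.0272, 0.0275, 0.053 and 0.114 CPM, and 1.24, 1.25, 1.83 and 2.14 CPM after stroke. This was the highest fitted log2 fold change among the members in this comparison, 4.78 ± 0.71 (edgeR adjusted p = 5.59e-05), and it rests on very low resting counts. The RNA helicases Ddx58, Dhx58 and Ifih1 gave 0.87 ± 0.22, 0.91 ± 0.27 and 0.38 ± 0.18. Eif2ak2, the RNA-activated kinase that stops translation, gave 0.74 ± 0.20, with 4.97 to 7.0 CPM before and 7.85 to 12.2 CPM after stroke. Of these 4, Ddx58, Dhx58 and Eif2ak2 passed the adjusted p but stayed under the fold limit.

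The 4 transcription factors had a median log2 fold change of 0.54, the lowest of the 11 roles. Irf7, which amplifies type I interferon production, was the one called, at 1.59, 1.65, 1.68 and 2.09 CPM in non-stroked and 3.56, 4.04, 4.87 and 5.53 CPM in stroked mice (log2 fold change 1.36 ± 0.39, edgeR adjusted p = 0.0119). Irf1, a factor of the interferon gamma response, gave 0.82 ± 0.23, and Irf9 gave 0.26 ± 0.19. Stat2 was at 30.5, 33.3, 35.8 and 37.7 CPM before and 28.2, 31.1, 32.4 and 35.6 CPM after stroke. The ranges overlap almost entirely, and the log2 fold change was -0.11 ± 0.12 (edgeR adjusted p = 0.52).

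Modifiers of the ISG15, ubiquitin and ADP-ribose systems were called in 5 of 6 cases. Isg15 encodes the ubiquitin-like protein itself and was at 0.272, 0.53, 0.626 and 0.66 CPM before stroke. After stroke it was at 0.861 and 0.934 CPM in the 2 mice of Imm2 and at 2.48 and 3.12 CPM in the 2 of TF. The log2 fold change was 1.80 ± 0.54 (edgeR adjusted p = 0.0157). Usp18, which removes ISG15 and limits receptor signalling, gave 2.04 ± 0.46, and Trim30a, a tripartite-motif protein, gave 1.81 ± 0.34. The ADP-ribosyltransferase family members Parp9 and Parp14 gave 1.40 ± 0.27 and 1.41 ± 0.33. Dtx3l, the ubiquitin ligase partner of Parp9, gave 0.36 ± 0.18. Dtx3l and Parp9 overlap by 682 bases on opposite strands, and use of strand in counting was not given in the sources used here.

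Among the large GTPases, Mx1 was called (2.52 ± 0.57) and Mx2, annotated as a polymorphic pseudogene, was not (0.96 ± 0.38). Guanylate-binding proteins, which coat vacuoles that hold microbes, were called in 3 of 4. Gbp2 was at 2.47, 2.51, 2.58 and 2.70 CPM in non-stroked and 9.59, 10.6, 11.2 and 11.9 CPM in stroked mice, a log2 fold change of 2.07 ± 0.33 (edgeR adjusted p = 0.00011). Both groups are narrow and lie far apart. The immunity-related GTPases, which act on the same vacuoles and respond chiefly to interferon gamma, were called in 4 of 5. Ifi47 gave 2.27 ± 0.42, Iigp1 1.63 ± 0.36, Irgm2 1.13 ± 0.29 and Igtp 1.02 ± 0.27, and Irgm1 with 0.75 ± 0.20 passed the adjusted p but not the fold limit. Igtp and Irgm2 overlap by 7974 bases on the same strand, so their counts may not be fully separate.

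Other antiviral effectors were called in 2 of 6. Bst2, the tetherin that holds budding virions at the cell surface, was at 0.880, 0.911, 1.14 and 1.48 CPM before and at 3.36, 4.77, 8.30 and 9.59 CPM after stroke (log2 fold change 2.55 ± 0.44, edgeR adjusted p = 0.000179). Both TF mice were above both Imm2 mice. Isg20, an exonuclease, gave 1.16 ± 0.35. Rsad2, which makes an antiviral nucleotide, gave 0.97 ± 0.33, just under the fold limit. Cmpk2, a mitochondrial nucleotide kinase whose gene starts 12752 bases from Rsad2 on the opposite strand, was at 20.6 to 23.6 CPM before and 21.0 to 22.2 CPM after stroke. It gave -0.04 ± 0.08 (edgeR adjusted p = 0.751) and its groups overlapped. In the Schlafen family Slfn8 (2.09 ± 0.36) and Slfn2 (1.92 ± 0.36) were called and Slfn5 (0.46 ± 0.26) was not.

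The remaining members were called in 4 of 6. Lgals3bp, a secreted glycoprotein that binds galectins, was at 13.8, 15.5, 15.8 and 20.0 CPM in non-stroked and 46.1, 57.5, 64.8 and 77.9 CPM in stroked WT mice (log2 fold change 1.92 ± 0.33, edgeR adjusted p = 0.000167). Ifi27l2a rose by 3.60 ± 0.67 on the log2 scale from 0.0569 to 0.192 CPM, a level of 2 or more counts, to 0.583 to 3.05 CPM. Ifi27, Ifi35 and Ifi27l2a were called together with Lgals3bp, while Ifi44 (1.03 ± 0.43) and Xaf1 (0.34 ± 0.22) did not pass.

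**Figure D2:**
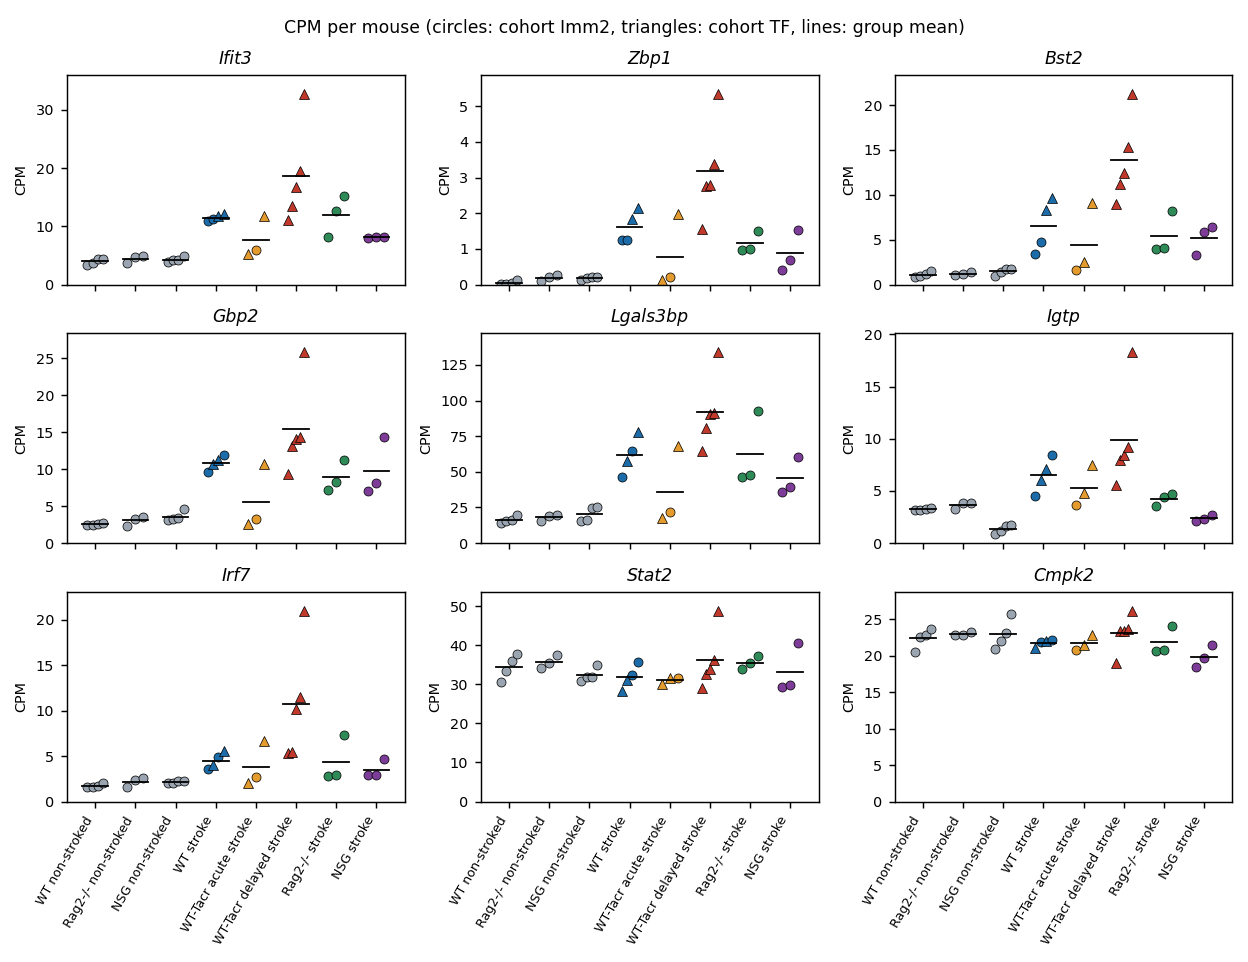
CPM per mouse (vertical axes, linear) of 9 members in the 8 groups (horizontal axes), with circles for cohort Imm2, triangles for TF and lines at the group mean. Ifit3, Zbp1, Bst2, Gbp2 and Lgals3bp separate stroked from non-stroked WT mice, Igtp is lower in both NSG groups than in the WT groups, and Stat2 and Cmpk2 stay level, with Cmpk2 between 18.5 and 26.2 CPM in all mice.

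The set was also higher after stroke in mice without T and B cells. Of 8 T cell markers, the T cell receptor chains Cd3d, Cd3e and Cd3g and the co-receptor chains Cd8a and Cd8b1 had 0 to 2 counts in each Rag2-/- and NSG library. The sum over all 8 did not separate the strains, at 2.72 to 37.2 CPM in these libraries and 8.89 to 24.3 CPM in untreated stroked WT mice, and most of its mean in each of these groups was Cd4. In Rag2-/- mice 14 members were called higher after stroke and 0 lower, against 4.22% of all genes called higher, and the median log2 fold change of the members was 0.97. In 42 members the stroked Rag2-/- mice all lay above the non-stroked ones (18.8% of all genes). Ifit3 was at 3.62, 4.76 and 4.89 CPM before and at 8.23, 12.6 and 15.2 CPM after stroke, a log2 fold change of 1.44 ± 0.30 (edgeR adjusted p = 0.00348). Ifit3b gave 1.46 ± 0.31, Lgals3bp 1.79 ± 0.37 and Bst2 2.18 ± 0.50. Oas3 had 0 counts in the 3 non-stroked Rag2-/- mice and 40 in the stroked ones, at least 12.8-fold higher when the floor is set at 3 counts over the group, and the median was 0.97 with Oas3 at that bound too. In Isg15 the log2 fold change was 0.75 ± 0.61 and the groups overlapped.

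Mouse 4f_1 carried the highest level of the 3 stroked Rag2-/- mice in 42 of 50 members, against 36.4% of all genes. Its summed CPM was 480, and those of the other mice were 317 and 363. Its microglia and macrophage markers summed to 942 CPM against 674 and 718, and its choroid plexus markers to 1566 against 7.60 and 10.4, and their part in the result was not tested. Without this mouse 3 members were called, and without any 1 of the 3 non-stroked Rag2-/- mice 6 or 7 were. Within the Imm2 cohort alone 23 were called with a median of 0.98.

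In NSG mice 13 members were called higher and 0 lower, against 5.01% of all genes called higher, with a median log2 fold change of 0.86. In 32 members the groups did not overlap (13.6% of all genes). Slfn2 was at 0.79, 0.879, 1.14 and 1.86 CPM before and 3.49, 3.64 and 5.63 CPM after stroke (log2 fold change 1.87 ± 0.38, edgeR adjusted p = 0.0013). Isg20 gave 1.70 ± 0.38, Ifi35 1.39 ± 0.33, Gbp2 1.46 ± 0.34 and Bst2 1.81 ± 0.44. Ifit3 reached 7.95, 8.17 and 8.20 CPM from 3.86 to 4.88 CPM, separate from rest but below all 4 stroked WT mice, and its log2 fold change of 0.92 ± 0.27 stayed under the fold limit. None of the 4 IFIT genes was called in NSG mice.

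Mouse 1f_2 was the highest of the 3 stroked NSG mice in 46 members (35.7% of all genes), with a summed CPM of 407 against 280 and 289. Its microglia and macrophage markers summed to 1078 CPM against 720 and 854, and its monocyte markers to 247 against 57.8 and 111, and their part was not tested. Without it 8 members were called. NK cell markers summed to 0.0306 to 0.152 CPM in stroked NSG mice and to 0.478 to 0.750 CPM in stroked WT mice, in which 5 or all 6 of the markers had counts.

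Whether the response itself differed between strains was tested as a difference of differences. For Rag2-/- against WT 0 members were called by edgeR (0% of all genes), 1 had an unadjusted p below 0.05 (4.19% of all genes), and DESeq2 called 0. For NSG against WT edgeR called 0 (0.0117% of all genes), with 2 at an unadjusted p below 0.05 (12.7% of all genes), and DESeq2 called 0. Zbp1 had the smallest p in both. Zbp1 had 1 to 4 counts in each non-stroked WT library, 3 to 9 in Rag2-/- and 4 to 8 in NSG, so its differences rest on very low counts. Its response was lower by 2.19 on the log2 scale in Rag2-/- mice (95% interval -4.37 to -0.01, edgeR adjusted p = 0.95) and by 2.48 in NSG mice (-4.58 to -0.38, adjusted p = 0.329). The median difference over the members was -0.29 for Rag2-/- mice, and it turned to 0.07 with the cohort as a covariate and to 0.01 within Imm2. For NSG mice it was -0.36, with -0.08 and -0.16 under the same alternatives. The intervals are wide, and a response of the same size was not shown either.

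**Figure D3:**
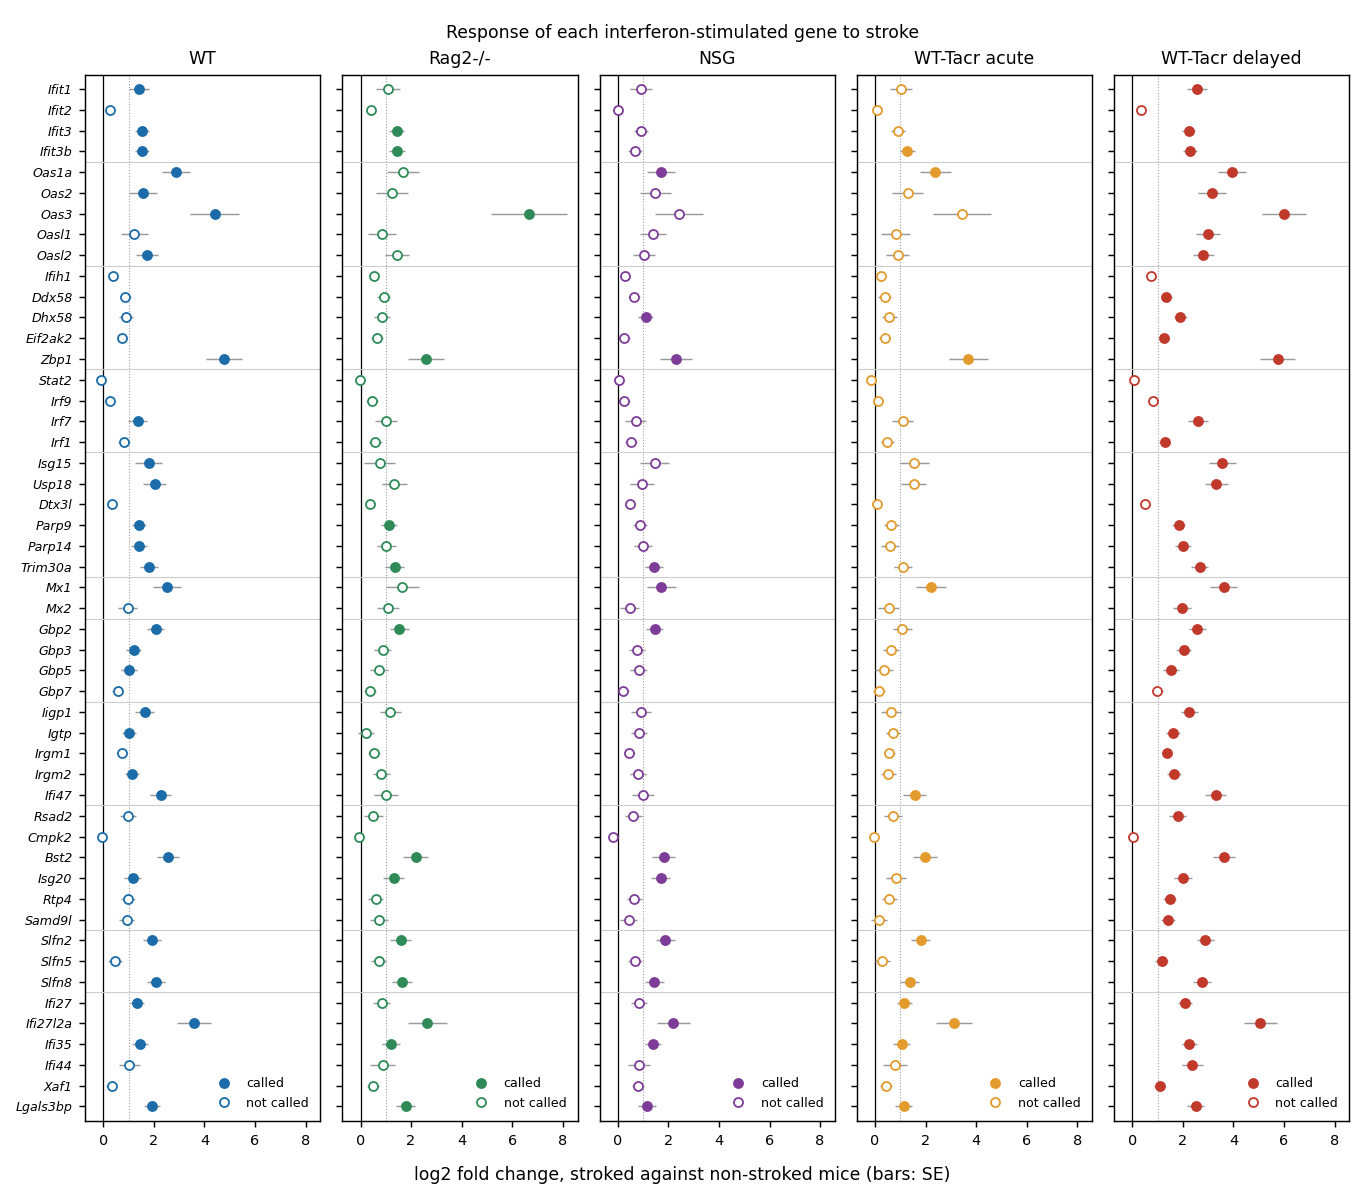
Log2 fold change with its SE (horizontal axis) of the 50 genes (rows, by role) for stroke against non-stroked mice in WT, Rag2-/-, NSG, WT-Tacr acute and WT-Tacr delayed mice. Filled points were called and the dotted line marks a log2 fold change of 1. The delayed panel has 43 filled points, the WT panel 30, and the other 3 panels 12 to 14.

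Stroked strains were also compared directly. Between stroked Rag2-/- and stroked WT mice 0 members were called by edgeR (0.00587% of all genes) and 0 by DESeq2, and Ifi47 and Igtp were lower at an unadjusted p below 0.05 (4.08% of all genes). Ifi47 was at 0.859, 0.861 and 1.38 CPM in Rag2-/- and at 1.19, 1.51, 2.39 and 2.66 CPM in WT mice, ranges that overlap, with a log2 difference of -0.90 and an edgeR adjusted p of 0.707. The median difference of the members was -0.12, and it turned to 0.18 with the cohort as a covariate and to 0.14 within Imm2.

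Between stroked NSG and stroked WT mice 2 members were called lower, against 1.62% of all genes, and both are immunity-related GTPases. Their genes overlap on the same strand, so the 2 calls may not be separate. Igtp was at 2.14, 2.30 and 2.72 CPM in NSG and at 4.56, 6.04, 7.12 and 8.46 CPM in WT mice, a log2 difference of -1.45 ± 0.31 (edgeR adjusted p = 0.00217). Irgm2 was at 1.97, 2.69 and 5.36 CPM against 6.92, 7.35, 8.03 and 9.48 CPM, a difference of -1.24 ± 0.32 (edgeR adjusted p = 0.0105). In both genes all NSG mice lay below all WT mice. Without NSG mouse 1f_1 the Irgm2 difference was -0.96 and was no longer called. The median over all members was -0.33, and it was -0.01 with the cohort as a covariate and -0.04 within Imm2.

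Igtp was also lower in non-stroked NSG than in non-stroked WT mice. In non-stroked NSG mice it was at 0.835, 1.19, 1.61 and 1.73 CPM, and in non-stroked WT mice at 3.13, 3.16, 3.29 and 3.36 CPM. The log2 difference was -1.27 ± 0.29 (edgeR adjusted p = 0.00452), and Igtp was the 1 member called in this comparison, in which 1.45% of all genes were called lower. Irgm2, which overlaps it on the same strand so that reads may be shared, was at 1.55 to 2.32 CPM against 3.18 to 3.87 CPM. The Irgm2 difference was -0.90, with an adjusted p of 0.057 in edgeR. Between non-stroked Rag2-/- and WT mice edgeR and DESeq2 called 0 members (0.00587% of all genes in edgeR), with 0 at an unadjusted p below 0.05 in edgeR (2.05% of all genes) and 1 in DESeq2. Zbp1 had the smallest p, with 0.0953, 0.213 and 0.255 CPM in Rag2-/- mice, a log2 difference from WT of 1.72 (95% interval -0.16 to 3.60, edgeR adjusted p = 1).

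Mice given tacrolimus from the day of stroke had a mixed picture. Against non-stroked WT mice 12 members were called higher and 0 lower, with 2.28% of all genes called higher, and the median log2 fold change was 0.75. Slfn2 (1.80 ± 0.38), Zbp1 (3.68 ± 0.78), Ifit3b (1.28 ± 0.29), Ifi27l2a (3.13 ± 0.72) and Bst2 (1.98 ± 0.46) had the smallest p-values among them. Slfn2 was at 2.34, 2.46 and 8.38 CPM, Zbp1 at 0.125, 0.219 and 1.97 CPM and Bst2 at 1.63, 2.50 and 9.12 CPM. In each, 1 mouse stood far above the others. In 13 members all acute mice were above all non-stroked WT mice (10.4% of all genes).

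That mouse, 2_1, was the highest of the 3 in 48 of 50 members (35.9% of all genes). Its summed CPM was 456, within the range of untreated stroked WT mice, while mice 5m_1 and 1_5 were at 232 and 239. The tags of these 2 mice in the sample titles differ from those in the names of their deposited files, and their group was taken from the titles and labels. Set against the range of the 4 untreated stroked WT mice, 5m_1 was below it in 47 members and 1_5 in 40, where 26.4% and 26.04% of all genes lay below. Mouse 2_1 was below it in 2, within it in 31 and above it in 17, where 14.8%, 67.2% and 18.1% of all genes were. Mice 5m_1 and 1_5 had 26 and 27 members above all 4 non-stroked WT mice, where 25.6% and 34.3% of all genes were. Microglia and macrophage markers moved the same way, with sums of 397 and 390 CPM in 5m_1 and 1_5, 851 CPM in 2_1, and 289 to 341 CPM in non-stroked WT mice. NK cell markers summed to 0.122, 0.208 and 0.579 CPM in the same order. These values move with the members, and their part in the result was not tested. In bulk tissue, fewer cells of a type and less RNA per cell cannot be told apart.

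Without mouse 2_1, 0 members were called in the acute comparison with non-stroked mice. Without 1_5 the count was 16 and without 5m_1 it was 20. Without any 1 of the non-stroked WT mice it was 5 or 6. With the cohort as a covariate it was 0 and the median fell to 0.30, and within Imm2 it was 0 with a median of 0.20. Directly against untreated stroked WT mice, edgeR and DESeq2 called 0 members (0% of all genes in edgeR), with 7 lower at an unadjusted p below 0.05 in edgeR (7.20% of all genes) and 8 in DESeq2. The difference was negative in 49 of 50 members, with a median of -0.40. Gbp2 had the smallest p, at 2.62, 3.19 and 10.7 CPM against 9.59 to 11.9 CPM, a log2 difference of -0.99 ± 0.35 (95% interval -1.71 to -0.26, edgeR adjusted p = 0.311). Without mouse 2_1, 16 members were called lower than in untreated stroked mice and the median was -0.98. The share of all genes called in that fit is not given here, so the count is not known to be particular to the members.

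Mice given tacrolimus from day 7 had the highest group mean of all 8 groups in 50 of 50 members. The share of all genes with this ranking was not counted. Mouse 5_5 of this group was the highest of all 29 mice in 50 of 50 members (12.3% of all genes), so these means rest in part on it. Against non-stroked WT mice 43 were called higher and 0 lower, where 11.5% of all genes were called higher, and the median log2 fold change was 2.06 with a range from 0.05 to 6.002. Ifit3 was at 11.1, 13.5, 16.8, 19.5 and 32.8 CPM (2.23 ± 0.26, edgeR adjusted p = 6.09e-07). Bst2 was at 8.97, 11.2, 12.4, 15.3 and 21.3 CPM (3.64 ± 0.44, edgeR adjusted p = 8.75e-07). Zbp1 was at 1.57, 2.77, 2.80, 3.40 and 5.36 CPM (5.75 ± 0.69, edgeR adjusted p = 8.15e-07). All 5 mice were above every non-stroked WT mouse in these genes, as they were in 45 members (26.5% of all genes).

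The genes that were called here and not in untreated WT mice included Oasl1 (3.0 ± 0.48), Mx2 (1.98 ± 0.36), Dhx58 (1.91 ± 0.26), Rsad2 (1.79 ± 0.32) and Irf1 (1.28 ± 0.22). A call in 1 of these comparisons alone is not a tested difference between them, which is given in the next paragraph. Isg15 gave 3.56 ± 0.53, with 3.19, 3.34, 5.83, 5.98 and 12.8 CPM. Irf7 gave 2.60 ± 0.38, with 5.39, 5.46, 10.2, 11.5 and 21.0 CPM. The 7 members not called were Ifit2, Ifih1, Stat2, Irf9, Dtx3l, Gbp7 and Cmpk2, and of these Stat2 (0.07 ± 0.11) and Cmpk2 (0.05 ± 0.08) also missed the adjusted p. All delayed mice belong to TF and all non-stroked mice to Imm2. With the cohort as a covariate, estimated from the untreated stroked WT and acute mice alone, 29 members were called.

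The direct comparison of delayed tacrolimus with untreated stroke gave 0 called members by edgeR (0% of all genes), although 37 were higher at an unadjusted p below 0.05 (7.78% of all genes). DESeq2 called 2 members higher, of 4 genes that it called higher in all. The difference was positive in 50 members with a median of 0.75. With the cohort as a covariate 11 members had an unadjusted p below 0.05 and the median was 0.43, and within TF it was 1 member and 0.60. Oasl1 had the smallest p, at 0.745, 0.845, 1.45, 1.48 and 2.53 CPM against 0.250, 0.252, 0.565 and 0.611 CPM, groups that do not overlap (log2 difference 1.76 ± 0.44, 95% interval 0.86 to 2.66, edgeR adjusted p = 0.150). Groups did not overlap in 7 members (2.05% of all genes). Without untreated mouse 5_2 edgeR called 4 members, and without 5_3 it called 9. The shares of all genes called in these fits are not given here.

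Among the 5 delayed mice, 5_5 was the highest in 50 of 50 members (27.1% of all genes), and it was also the highest of all 29 mice in 50 of 50 (12.3% of all genes). Its summed CPM was 983 and those of the others were 412, 538, 582 and 594. Its library also had the lowest total count of the 29, 17789044, and the part of depth was not tested. Mouse 3_3, the lowest, was within the range of untreated stroked WT mice in 36 members, close to the 67.8% of all genes. Mice 3_4, 3_5 and 4_3 were above it in 47, 34 and 38 members, where 18.9%, 21.7% and 20.4% of all genes were. In 5_5 NK cell markers summed to 2.78 CPM against 0.770 to 1.28 CPM in the other delayed mice, monocyte markers to 379 against 144 to 193 CPM, and microglia and macrophage markers to 1162 against 886 to 1145 CPM. In untreated stroked WT mice microglia and macrophage markers summed to 714 to 904 CPM and monocyte markers to 138 to 231 CPM. NK cell markers summed there to 0.478 to 0.750 CPM. Cortical neuron markers were at 874 to 1292 CPM in the delayed mice, 1098 to 1948 CPM in untreated stroked and 1925 to 2166 CPM in non-stroked WT mice. Choroid plexus markers were at 11.2 to 844 CPM in delayed and 11.3 to 251 CPM in untreated stroked mice. The part of these markers in the delayed result was not tested.

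**Figure D4:**
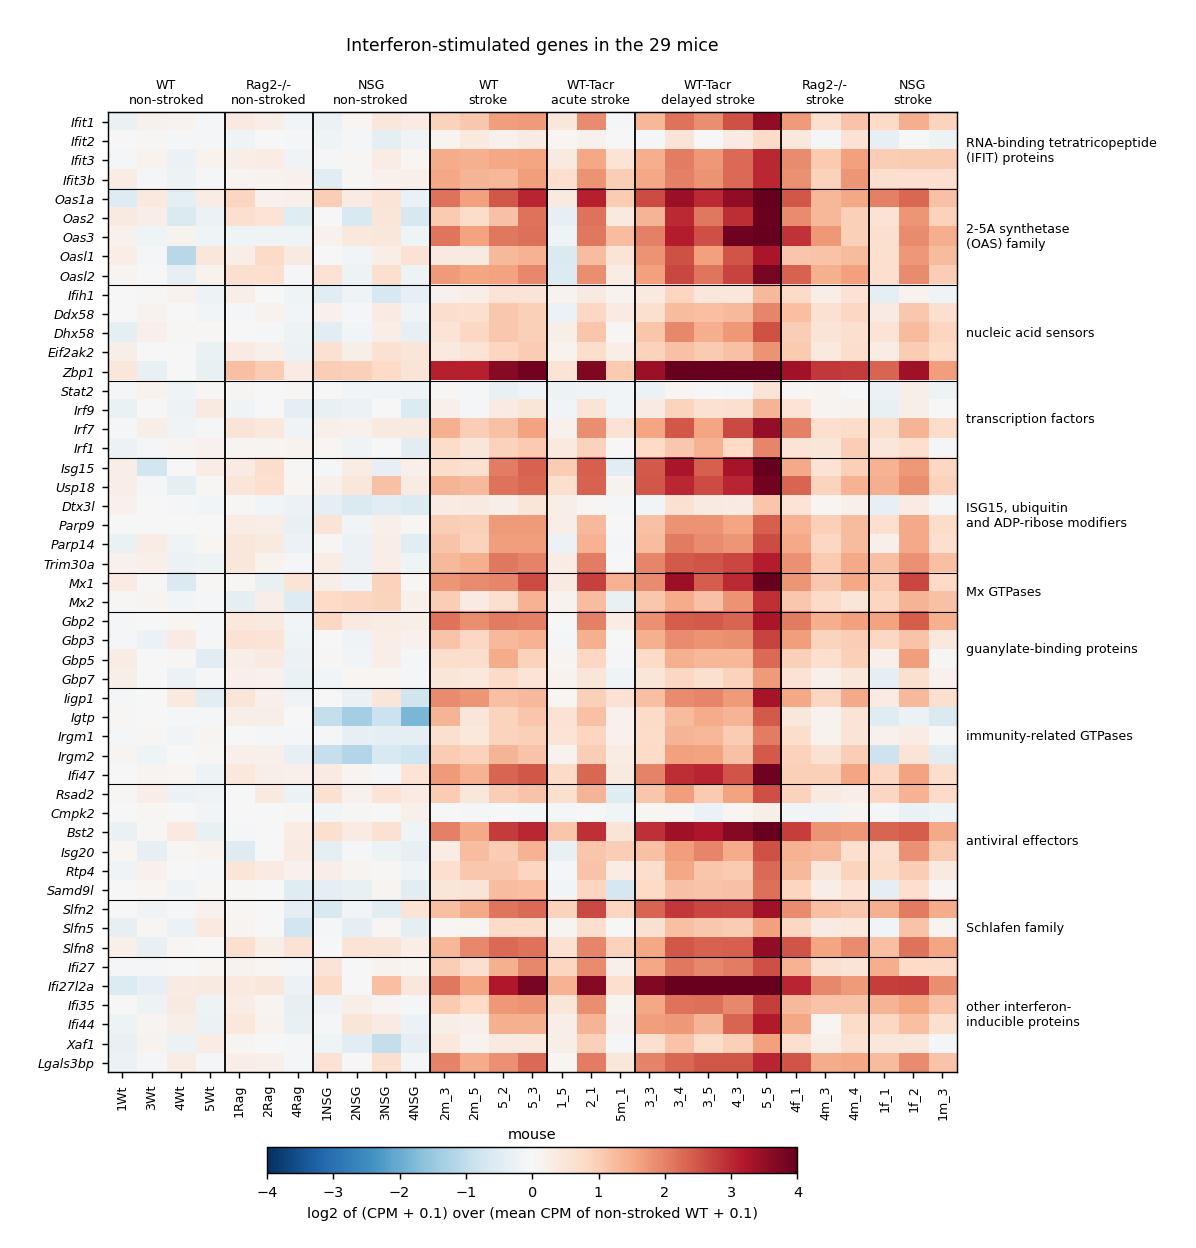
Log2 ratio of (CPM + 0.1) to the mean of non-stroked WT mice (CPM + 0.1) for the 50 genes (rows, by role) in the 29 mice (columns, by group), on a colour scale that saturates at -4 and 4. Mouse 5_5 of the delayed group is the darkest column, and mice 5m_1 and 1_5 of the acute group are close to the non-stroked columns.

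Set against each other in the fit of all 8 groups, the schedules of tacrolimus gave calls in many members, which did not hold in every fit. In the delayed group 33 members were called higher than in the acute group and 0 lower, where 5.22% of all genes were called higher, and the median log2 difference was 1.27. Ifit3 was at 5.16, 5.89 and 11.7 CPM in acute and 11.1 to 32.8 CPM in delayed mice, a difference of 1.30 ± 0.27 (edgeR adjusted p = 0.0102). Gbp3 was at 3.50, 3.72 and 9.97 CPM against 10.1 to 24.4 CPM (1.39 ± 0.31), and Iigp1 at 1.58, 2.26 and 2.97 CPM against 3.58 to 15.4 CPM (1.65 ± 0.38). Dhx58 gave 1.34 ± 0.29 and Trim30a 1.55 ± 0.35. In Gbp3 and Iigp1 the groups did not overlap, as in 9 members altogether (8.81% of all genes), and in Ifit3 acute mouse 2_1 overlapped the lowest delayed mouse.

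These calls changed when single mice were left out. Without acute mouse 5m_1 or without 1_5, 0 members were called, with medians of 1.1 and 1.07. Without 2_1 there were 41, with a median of 1.80, and without delayed mouse 5_5 there were 18, with a median of 1.0. The shares of all genes called without these mice are not given here. Within cohort TF, which holds 2 acute and all 5 delayed mice, edgeR called 0 members, while 25 had an unadjusted p below 0.05 and the median was 1.13. A fit of only the compared groups called 0 members and 0 of all genes, with 45 members at an unadjusted p below 0.05, a smallest adjusted p of 0.0741 in edgeR and a median of 1.29. With the cohort as a covariate 23 were called. Choroid plexus markers summed to 3.87 to 17.3 CPM in the acute mice and to 601 to 844 CPM in 4 delayed mice. Delayed mouse 3_4, with a member sum of 594, had 11.2 CPM. Cortical neuron markers summed to 1243 to 2222 CPM in acute and to 874 to 1292 CPM in delayed mice. Microglia and macrophage markers summed to 390 to 851 CPM in acute and to 886 to 1162 CPM in delayed mice. The part of these markers in the result was not tested. The acute group had the lowest mean of the 5 stroked groups in 30 members, NSG in 13 and Rag2-/- in 7. This ranking was not counted over all genes, so it is not known to be particular to the members. Within the untreated stroked WT group both TF mice were above both Imm2 mice in 33 members and below both in 2, where 34.1% and 31.3% of all genes were.

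**Figure D5:**
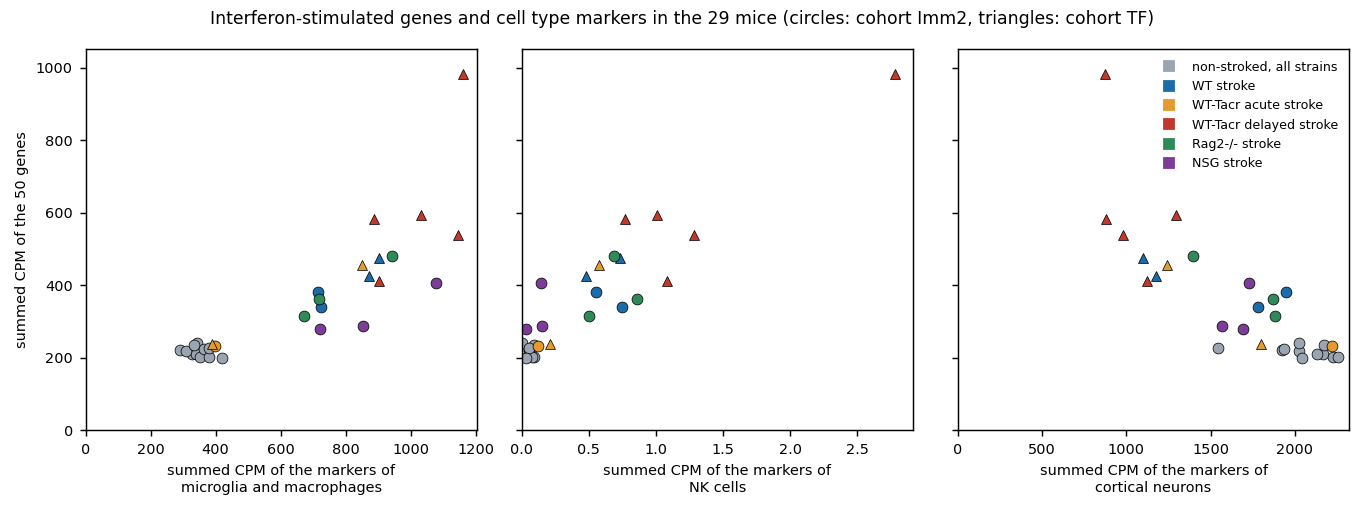
Summed CPM of the 50 members (vertical axis) against the summed CPM of markers for microglia and macrophages, NK cells and cortical neurons (horizontal axes) in each mouse, coloured by group, with circles for Imm2 and triangles for TF. Acute mice 5m_1 and 1_5 lie beside the non-stroked mice on the microglia axis, near 390 to 397 CPM, and mouse 5_5 stands apart on the NK cell axis at 2.78 CPM.

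Upstream genes of the pathway were described from lists of their own. Interferon ligands were near the limit of detection. Of 20 ligand genes 7 had any count, 27 counts in all over the 29 libraries and never more than 2 in a library. Ifnb1 had 0 counts, and Ifng, the gamma interferon of T and NK cells, had 9 counts spread over 6 libraries. A count of 0 in a library allows up to 3, so low transcription of the ligands was not detectable at this depth.

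Of the 6 receptor genes, 2 were called higher in stroked WT mice, 0 in Rag2-/-, 1 in NSG, 0 in acute and 3 in delayed mice. Among all genes tested 6.76% were called higher in WT, 4.22% in Rag2-/-, 5.01% in NSG, 2.28% in acute and 11.5% in delayed mice. Ifngr1, the ligand-binding chain for interferon gamma, had a mean of 11.3 ± 0.779 CPM (SD, n = 4) in non-stroked and 25.8 ± 4.17 CPM (n = 4) in stroked WT mice (log2 fold change 1.19 ± 0.16, edgeR adjusted p = 3.33e-05). Ifnar1, a chain of the type I receptor, had 46.4 ± 2.36 and 44.5 ± 0.439 CPM and gave -0.06 ± 0.07. Its partner Ifnar2 gave 0.37 ± 0.11, which passed the adjusted p but not the fold limit.

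Of 14 genes of signal transduction, 4 were called in WT, 3 in Rag2-/-, 4 in NSG and 1 in acute mice. Calls in either direction made up 7.30% of all genes in WT, 4.33% in Rag2-/-, 5.48% in NSG and 2.58% in acute mice. In delayed mice that share was 15.5%. Irf8 (1.64 ± 0.27), Ptpn6 (1.43 ± 0.25), Socs3 (1.33 ± 0.23) and Irf5 (1.17 ± 0.22) were those of WT mice. Irf8, Ptpn6 and Irf5 are strongly expressed in myeloid cells, and Socs3 is a feedback inhibitor of JAK signalling. In delayed mice Irf8 gave 2.08 ± 0.26, Ptpn6 2.01 ± 0.25, Irf5 1.67 ± 0.21 and Socs3 1.14 ± 0.22, all called. Jak1, a kinase of the receptors, gave -0.25 ± 0.06 in untreated WT mice.

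Of 14 nucleic acid sensing and adaptor genes outside the 50 members, 5 were called in WT, 3 in Rag2-/-, 4 in NSG, 2 in acute and 6 in delayed mice. The shares of all genes given with the lists above are those to set beside these counts and the marker counts below. Ifi204, a DNA-binding interferon-inducible protein of myeloid cells, gave 4.25 ± 0.59 in WT mice, 3.94 ± 0.68 in Rag2-/-, 2.81 ± 0.63 in NSG, 3.02 ± 0.63 in acute and 4.81 ± 0.59 in delayed mice. Tlr7, the endosomal sensor of single-stranded RNA, gave 1.92 ± 0.29, 1.78 ± 0.34, 1.65 ± 0.31, 1.36 ± 0.31 and 2.29 ± 0.29 in the same order. Cgas, the cytosolic DNA sensor, gave 0.03 ± 0.20 in WT mice. Of 11 microglia and macrophage markers, 9 were called higher in WT, 6 in Rag2-/-, 6 in NSG, 5 in acute and 10 in delayed mice. In delayed against acute mice 5 of the markers were higher, where 5.22% of all genes were called higher. These marker sums rose together with the members in each stroked group, and their part in the result was not tested.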

How the data were processed

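RNA of 29 mouse cortex samples was measured by stranded polyA RNA-seq. The authors deposited raw counts, whole numbers of reads per gene, for 25746 Ensembl genes. The aligner, genome build, annotation and use of strand in counting are not given in the sources used here. Gene names and positions were taken from GENCODE M21 (GRCm38), which held 25712 of the IDs. Promoters came from RefSeq (GRCm38.p6).

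Groups followed the sample labels. Counts were tested with edgeR 4.0.16 in R 4.3.3 (TMM, filterByExpr by group, quasi-likelihood F test) in 1 fit of 8 groups without covariates. P-values were adjusted by Benjamini-Hochberg over the 17031 genes tested, and members were called at adjusted p below 0.05 where the log2 fold change exceeded 1 in size. The SE is the log2 fold change over the square root of F, and 95% intervals use the fit's degrees of freedom. Library totals ranged from 17789044 to 43403413. Of the members, 43 had 10 or more counts in every sample, and Oas1a, Oas2, Oas3, Oasl1, Zbp1, Mx1 and Ifi27l2a had fewer in some. Count intervals and floors (3 counts) cover counting error only.

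The members and lists were chosen with earlier results of these data known. The genes named are, per role, the member with the smallest p and the one with the highest mean CPM in the WT comparison, and for other comparisons up to 5 called members with the smallest p, or the 1 with the smallest p where none was called. Further members, including neighbours and those not called, were named after their values were seen. Alternatives were RLE normalization, other filters on low counts, no minimum fold change, fits with the cohort as a covariate, in 1 cohort only or of the compared groups only, DESeq2 1.42.0, a replicate block, and leaving out each sample. The TF fit and the unblocked fit on the block's samples were chosen after seeing the data. The scripts were tested on simulated counts. Counts of all library pairs within a group differed by more than sampling noise. 1 gene of the signal transduction list is not reported here.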

Additional observations from a re-analysis of the deposited data

Results flagged for a closer look

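Within groups of 4 or 5 mice, 132 sets of values were checked for a mouse whose distance from the nearest other is large against the range of its group. In all, 6 were found, where about 6.6 are expected of independent sets. The sets come from the same mice and from genes that move together, so that number cannot tell whether 1 mouse stands apart by chance. Delayed mouse 5_5 was the high value in 5 of the 6. Its CPM was 21.0 for Eif2ak2 (11.3 to 13.5 in the other delayed mice), 24.4 for Gbp3 (10.1 to 14.0), 18.3 for Igtp (5.59 to 9.23), 15.4 for Iigp1 (3.58 to 6.0) and 6.55 for Mx2 (1.73 to 2.94). The other is Irgm1, at 6.76 CPM in non-stroked NSG replicate 1 and at 5.44 to 5.61 in the other 3 mice of that group.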

How the results depend on the processing

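Counts of members called kept within 1.5 times the reported count, in the same direction, under RLE normalization, other filters on low counts and no minimum fold change, and no call changed direction under any alternative run. The median over the members, with 0 calls, turned positive for the Rag2-/- response relative to WT (-0.29, 0.07 with the cohort as a covariate, 0.01 within Imm2) and for stroked Rag2-/- against stroked WT (-0.12, then 0.18 and 0.14, and 0.03 without stroked Rag2-/- replicate 2). With the cohort as a covariate stroke in WT mice went from 30 to 17 and acute tacrolimus from 12 to 0. Within Imm2 stroke in Rag2-/- mice went from 14 to 23 and acute tacrolimus to 0. Within TF, and in a fit of only the compared groups, delayed against acute tacrolimus went from 33 to 0, with medians of 1.13 and 1.29 against 1.27, and 0 of all genes were called there. The latter fit also took acute tacrolimus to 0 (median 0.71 against 0.75, with 21 of all genes called) and stroked NSG against stroked WT from 2 to 1. DESeq2 called 2 for delayed tacrolimus against untreated stroke, where edgeR called 0. With 1 sample left out the counts ranged from 26 to 34 for stroke in WT, 3 to 13 in Rag2-/-, 8 to 16 in NSG, 0 to 20 with acute and 42 to 44 with delayed tacrolimus. They ranged from 0 to 41 for delayed against acute, 0 to 16 for acute and 0 to 9 for delayed against untreated stroke, and 1 to 3 for stroked NSG against stroked WT. Shares of all genes are not given for fits with 1 sample left out, so these ranges are not known to be particular to the members. The cause was not tested. Of 424 values of named genes under the other alternatives 395 kept their call, 25 lost it and 4 gained it. Non-stroked samples of different strains share replicate numbers but did not deviate together (correlations from -0.26 to 0.11). With the numbers as a block, non-stroked NSG against WT fell from 1 called member to 0 (Igtp, -1.26, adjusted p = 0.0541 in edgeR), while the same samples without the block gave 1. Depth limits the ligands and the 7 members with few counts.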
